A study of Mus musculus with 2 samples.

Results

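The genes described here are the mouse histone genes, taken as every protein-coding gene whose GENCODE symbol begins with Hist1h, Hist2h, Hist3h, Hist4h or H2af, together with H1f0, H1fx, H3f3a and H3f3b. The rule used symbols only and no measured value. It found 80 genes in GENCODE M21, of which 77 had a row in the deposited tables, out of 43346 mouse genes and 21474 protein-coding genes. Of the 77, 64 were clustered genes (Hist1h to Hist4h) and 13 were variant genes (H2af, H1f0, H1fx, H3f3a, H3f3b). Hist1h2bh, Hist1h2bm and Hist2h2bb were without a row of the same identifier and were not analysed here.

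The data were 2 RNA sequencing libraries of newborn heart (postnatal day 0) from mice of strain B6NCrl, with no treatment and no second condition named. Each library was made from 13 pg of total RNA above 200 nt, labelled as 1 cell-equivalent, so that each is a minute sample of a whole heart and not an isolated cell. Replicate 1 came from a single heart of pup 1 and replicate 2 from a single heart of pup 3, and both carried the same donor identifier. The group was 1 and no test between conditions could be made, so values are given for each library with the mean ± SD over the 2 libraries.

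Histones package DNA. The core histones H2A, H2B, H3 and H4 form the nucleosome and the linker histone H1 binds where DNA enters and leaves it. The clustered genes are mostly replication-dependent. As a rule they lie in dense groups, have no introns and are transcribed mainly in S phase. Their mRNA usually ends in a short stem-loop bound by the stem-loop binding protein Slbp instead of a poly(A) tail. Some members depart from this rule. The variant genes lie apart, are mostly made throughout the cell cycle, and give polyadenylated mRNA, and their proteins replace the clustered ones outside replication. The protocol named in the labels is a Smart-seq one, which in its usual form starts cDNA synthesis at the poly(A) tail; the part of this step in the levels was not tested.

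The stem-loop letters, a run of GGNNC, TTTT and NAGNNCC in which N stands for any base, were searched in the GENCODE M21 transcripts of each member on the sense strand. They are shown here for the clustered genes averaging 10 TPM or more that held them and for the 1 variant gene that did, with Hist2h2aa1 left out because its stretch was the same as that of Hist2h2aa2. Each line gives the sequence 5′ to 3′ in the sense of the mRNA, with the 16 letters of the stem-loop in capitals and up to 7 neighbouring bases on each side.
Hist1h1c: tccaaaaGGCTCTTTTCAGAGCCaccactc
Hist1h1e: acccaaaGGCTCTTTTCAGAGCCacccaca
Hist1h2ap: aaaaaaaGGCTCTTTTCAGAGCCatc
Hist2h2aa2: ctaaaaaGGCTCTTTTCAGAGCCacccact
Hist3h2a: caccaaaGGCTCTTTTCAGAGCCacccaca
Hist1h4d: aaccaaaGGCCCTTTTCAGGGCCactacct
Hist1h4h: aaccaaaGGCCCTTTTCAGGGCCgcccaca
H2afx: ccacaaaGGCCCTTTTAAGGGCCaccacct
On mm10 the capitals of Hist1h1c stand at chr13:23739512-23739527 on the plus strand, those of Hist1h2ap at chr13:21833029-21833044 on the minus strand, and those of H2afx at chr9:44335240-44335255 on the plus strand. Of the members, 43 held the letters, in 7 spellings. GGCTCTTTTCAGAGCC was the usual spelling and stood in 24 members, of which 3 were H1, 10 were H2A, 6 were H2B and 5 were H3 genes. Every H4 gene with the letters had another: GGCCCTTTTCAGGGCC in 7, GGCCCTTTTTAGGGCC in 2 and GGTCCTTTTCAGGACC in 2. H2afx, which is known to give both a stem-loop mRNA and a longer polyadenylated one, had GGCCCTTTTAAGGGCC, in which both arms of the stem match those of 9 of the 11 H4 genes with the letters. Of all 58797 protein-coding transcripts of the annotation, 98 held the letters (0.167%), and 45 of the 98 belonged to these histone genes.

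Depth was 40648662 expected counts in replicate 1 and 33173354 in replicate 2, and spike-ins took 2.40% and 1.27%. The labelled tissue had its markers: all 6 cardiomyocyte markers reached 1 TPM in each library, as did 5 of 7 erythroid markers and 2 of 6 leukocyte markers, with Ptprc and Cd68 at 0. In such bulk samples fewer cells of a type and less RNA per cell cannot be told apart. Counting error lets a gene with no count have up to 3 counts in a library, which for the clustered members stood for 0.0334 to 0.436 TPM in replicate 1 and 0.0394 to 0.514 TPM in replicate 2. Reads carried no molecular identifiers, so these limits cover counting error only.

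Most clustered genes were hardly read in these libraries, and variant genes carried most of the histone TPM. How far the protocol captured mRNA without a poly(A) tail was not tested. A gene was called read when it had 1 TPM or more in both libraries; 10 of 64 clustered genes and 8 of 13 variant genes were read, 18 of the 77 members in all, against 28.4% of protein-coding genes. At the other end, 42 of 64 clustered genes and 4 of 13 variant genes had under 3 expected counts in both libraries, together 46 of 77 members, against 51.1% of protein-coding genes. The share of the clustered genes that were read was thus below the background share and that of the variant genes above it. The median clustered gene stood at 0 TPM in both libraries, and the median variant gene at 26.9 TPM (replicate 1) and 30.8 TPM (replicate 2). All protein-coding genes together had a median of 0 TPM in both.

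Summed over genes, the clustered members held 664 TPM in replicate 1 and 932 TPM in replicate 2, against 2760 and 3278 TPM on the variant members. The log2 ratio of clustered to variant sums was -2.06 in replicate 1 and -1.81 in replicate 2, a mean of -1.94 ± 0.17 (SD, n = 2). The mean was -2.77 in CPM, expected counts scaled to a common total and not per length, and -2.56 without Hist1h2ap, which was left out after seeing the data. Variant genes thus held 80.6% and 77.9% of histone TPM, or 79.2% ± 1.94. All members together made up 0.342% and 0.421% of the TPM of mouse genes. The order of the 2 classes was the same in each library, and the gap was larger than the spread between libraries. In replicate 2 this order rested on H3f3a and H3f3b. Both genes together summed to 1849 TPM (replicate 1) and 2472 TPM (replicate 2). The rest of the variant sum was 801 and 775 TPM from H2A genes and 110 and 30.8 TPM from H1 genes. Without H3f3a and H3f3b, variant genes thus stayed above clustered genes in replicate 1 and fell below them in replicate 2.

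**Figure D1:**
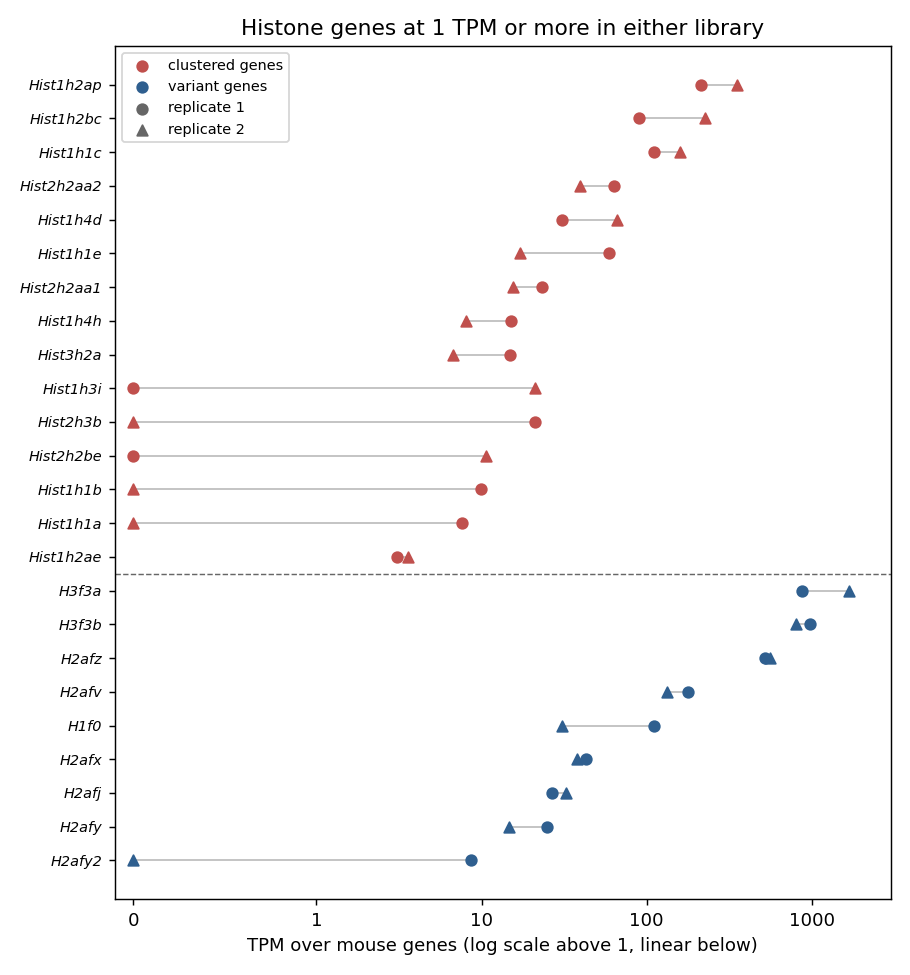
TPM over mouse genes of the 24 histone genes at 1 TPM or more in either library, with clustered genes above the dashed line and variant genes under it, circles for replicate 1 and triangles for replicate 2. The clustered genes reach 213 and 353 TPM with Hist1h2ap, while H3f3a reaches 870 and 1673 TPM, and the genes with a symbol at 0 were read in 1 library alone.

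Within the clustered genes a handful carried the sum. The first 5 by mean level, Hist1h2ap, Hist1h2bc, Hist1h1c, Hist2h2aa2 and Hist1h4d, held 76.5% of clustered TPM in replicate 1 and 90.7% in replicate 2. Hist1h2bc and Hist1h1c, the marker genes of the module, held 30.3% and 41.5% between them (35.9% ± 7.94, SD, n = 2), or 55.2% on average in CPM. Of the 52 Hist1 genes, most of which lie in the large cluster of chromosome 13, 7 were read; of 9 Hist2 genes 2 were read, of 2 Hist3 genes 1, and the single Hist4 gene had no count. Near-identical copies limit these gene-level values: a median of 37.8% of the 100-base windows of a clustered gene, against 4.67% of those of a variant gene, also occur in another annotated gene.

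Among the linker histones, the clustered genes gave 188 TPM in replicate 1 and 177 TPM in replicate 2, against 110 and 30.8 TPM for the variant genes. Hist1h1c (ENSMUSG00000036181, chr13:23738808-23740367, plus strand), a linker histone made in most tissues, was at 111 TPM (replicate 1) and 160 TPM (replicate 2), from 5260 and 6406 expected counts. H1f0 (ENSMUSG00000096210, chr15:79028450-79030504, plus strand), the linker variant known to build up in differentiated cells that have left the cycle, had 110 and 30.8 TPM. The log2 ratio of Hist1h1c to H1f0 was therefore 0.02 in replicate 1 and 2.34 in replicate 2, or 1.18 ± 1.64 (SD, n = 2), which is within the spread between the libraries.

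Hist1h1e, a further clustered linker gene, had 59.2 and 17.2 TPM, and 24.7% of its windows were shared, most of them with the overlapping model of Hist1h2be. Hist1h1b had 9.91 TPM and Hist1h1a 7.58 TPM in replicate 1, and both had no count in replicate 2; both are named because their values were seen. H1fx, the other somatic linker variant, had no count in either library, where 3 counts would stand for 0.0831 and 0.0979 TPM. By counting error alone, H1f0 was at least 1325-fold higher in replicate 1 and at least 315-fold higher in replicate 2. Molecules lost before sequencing are not covered by this limit. Hist1h1c took 37.4% of linker TPM in replicate 1 and 76.9% in replicate 2, and H1f0 took 36.9% and 14.8%.

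Among H2A genes the clustered ones summed to 319 TPM in replicate 1 and 420 TPM in replicate 2, against 801 and 775 TPM for the variant ones. Hist1h2ap (ENSMUSG00000094777, chr13:21833026-21833507, minus strand), a core H2A gene, led with 213 and 353 TPM from 2633 and 3709 expected counts, which was 66.8% and 84.1% of clustered H2A. Of its windows 92.2% occur elsewhere, 353 of them in Hist1h2ao, which was listed at 0 in both libraries. The authors' posterior SD of the Hist1h2ap count was 19.2 in replicate 1 and 17.6 in replicate 2. The model of Hist1h2ap also ends 3 bases after its stem-loop.

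Hist2h2aa1 and Hist2h2aa2, a pair of H2A genes on chromosome 3 that share every window with each other or with overlapping transcripts, had 23.1 and 15.5 TPM (Hist2h2aa1) and 63.1 and 39.3 TPM (Hist2h2aa2). The authors' posterior SD of the count was 80.2 for Hist2h2aa1 and 79.0 for Hist2h2aa2 in replicate 1, on 363 and 875 expected counts, so the division between the pair is uncertain. The antisense models Gm20632 and Gm20633 at the same place had 5.97 and 4.52 TPM in replicate 1 and 0 in replicate 2. Hist3h2a, an H2A gene outside the large cluster, had 14.9 and 6.70 TPM, and its model overlaps that of Trim17, which had 0 TPM in both. Hist1h2ae was the only other clustered H2A gene read, at 3.08 and 3.59 TPM.

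H2afz (ENSMUSG00000037894, chr3:137864487-137866922, plus strand) encodes the essential H2A.Z found at promoters and was the leading H2A gene, at 519 and 557 TPM. H2afv, which encodes the second H2A.Z protein, had 179 and 133 TPM. The log2 ratio of H2afz to H2afv was 1.53 and 2.06 (1.80 ± 0.37, SD, n = 2), a difference that exceeded 2 SD with the same sign in both libraries. Together both genes made 62.3% and 57.7% of H2A TPM. A processed pseudogene of H2afz, Gm8203, was listed at 159 and 134 TPM. Of the windows of H2afz, 25.7% are found in other genes, with 570 windows in Tmcc1, at 0 TPM in both libraries, and 288 in Gm8203. Reads may thus be divided between H2afz and Gm8203, which was not tested.

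The remaining H2A variants were read at lower levels. H2afx, whose protein is phosphorylated at DNA breaks, had 43.2 and 37.7 TPM, and H2afj had 26.9 and 32.5 TPM, with a log2 ratio of H2afj to H2afx of -0.44 ± 0.32, within 2 SD. H2afy encodes macroH2A1, an H2A with a large added domain linked to silent chromatin, and had 24.9 and 14.8 TPM. H2afy2, its relative macroH2A2, had 8.68 TPM from 582 expected counts in replicate 1 and no count in replicate 2. The log2 ratio of H2afy to H2afy2 was 1.42 and 3.98, or 2.70 ± 1.81, again within 2 SD.

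The H2B TPM came almost wholly from 1 clustered gene. Hist1h2bc (ENSMUSG00000018102, chr13:23684199-23692908, plus strand) was at 89.7 TPM (replicate 1) and 227 TPM (replicate 2), from 1845 and 3960 expected counts, and made 99.8% and 95.3% of H2B TPM. Of the other 14 H2B genes, 13 were under 1 TPM in both libraries, and Hist2h2be had no count in replicate 1 and 10.6 TPM from 734 counts in replicate 2. Hist1h2bc was also the only read clustered gene without the stem-loop letters in its GENCODE M21 transcript, a spliced model of 1156 nt, while the deposited model is 736 nt long. On the log2 scale it stood -2.52 and -1.29 from H2afz, or -1.91 ± 0.87, a difference past 2 SD.

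H3 showed the widest gap between the classes. The clustered H3 genes summed to 21.3 and 22.3 TPM and none of the 12 was read in both libraries, while the variant genes H3f3a and H3f3b, which both encode the replacement histone H3.3, summed to 1849 and 2472 TPM. H3f3b (ENSMUSG00000016559, chr11:116021912-116027962, minus strand) had 978 and 799 TPM and H3f3a (ENSMUSG00000060743, chr1:180800832-180813943, minus strand) had 870 and 1673 TPM. By mean level H3f3a stood 97th and H3f3b 149th among protein-coding genes. Together both genes made 98.9% and 99.1% of H3 TPM, and 54.0% and 58.7% of the TPM of all members.

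H3f3b and H3f3a exchanged places between the libraries, with a log2 ratio of 0.17 in replicate 1 and -1.06 in replicate 2, or -0.45 ± 0.87 (0.67 in CPM), so neither could be called the higher. H3f3a shares 20.8% of its windows, with 545 windows in the noncoding gene Gm17275, listed at 0 and 0.04 TPM. Of its partners 13 are pseudogenes, and the processed pseudogene H3f3c, with 168 shared windows, was listed at 120 and 274 TPM. How far reads are divided between H3f3a and these pseudogenes was not tested. H3f3b shares 1.92%. With H3f3c and Gm8203 added to their parent genes, an alternative chosen after seeing the data, variant genes held 80.9% of the histone TPM.

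H4 has no variant gene among the members, and its 13 genes summed to 45.8 TPM in replicate 1 and 74.0 TPM in replicate 2. Hist1h4d (ENSMUSG00000061482, chr13:23581598-23582735, plus strand) had 30.8 and 65.9 TPM, which was 67.1% and 89.1% of H4, and shares none of its windows with another gene. Hist1h4h had 15.1 and 7.99 TPM. The other 11 H4 genes had under 3 counts in both libraries. Over all members, H1 genes made 8.71% and 4.94% of histone TPM, H2A 32.7% and 28.4%, H2B 2.62% and 5.66%, H3 54.6% and 59.3%, and H4 1.34% and 1.76%.

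**Figure D2:**
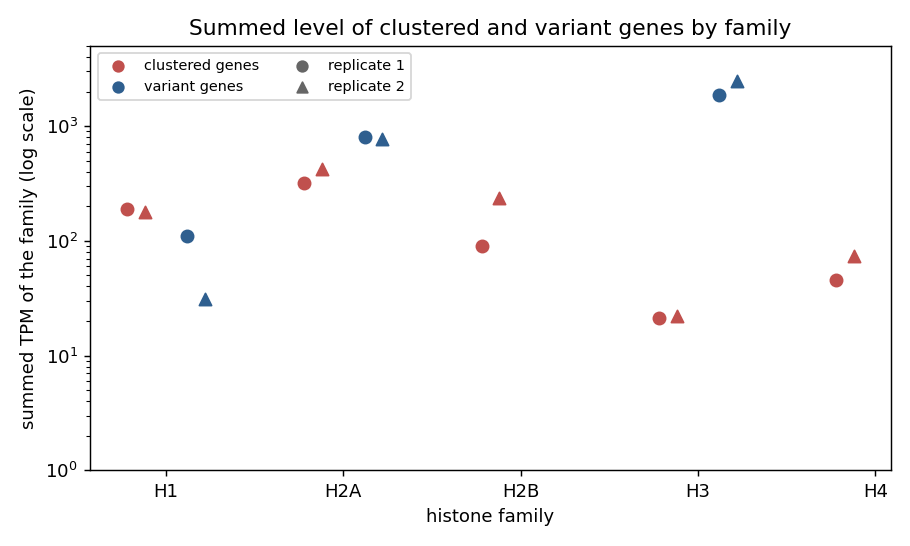
Summed TPM (log scale) of each histone family, with clustered genes in red left of variant genes in blue, circles for replicate 1 and triangles for replicate 2. Variant genes are above clustered genes for H2A and H3, clustered genes are above variant genes for H1, and H2B and H4 have clustered members alone.

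Clustered genes were read both with and without the stem-loop letters in their models. Of the clustered genes, 42 held the letters in a GENCODE M21 transcript, and 9 of these were read. The other 22 did not, and 1 of these, Hist1h2bc, was read. Of the 22, 15 had a deposited model under 500 nt, and none of the 15 was read. Whether such short models stop before the letters was not tested, so the 22 are not shown to lack a stem-loop. In a single library the 22 genes without the letters gave 4 read genes in replicate 1 and 3 in replicate 2. The models with the letters divided evenly: 21 ended within 100 bases of them and 21 ran on farther, of which 4 and 5 were read. The 4 read genes of the first kind were Hist1h2ap, Hist2h2aa1, Hist2h2aa2 and Hist1h4h, and the 5 of the second were Hist1h1c, Hist1h1e, Hist1h4d, Hist3h2a and Hist1h2ae.

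Models that ran on had 840 bases after the letters in Hist1h1c, 1153 in Hist1h1e, 770 in Hist1h4d and 1643 in Hist3h2a. The letters AATAAA or ATTAAA, the usual signal for adding a poly(A) tail, stood in the last 50 bases of the model in 17 of 64 clustered genes, of which 4 were read, and in 10 of 13 variant genes, of which 8 were read. The 47 clustered genes without these letters included 6 read genes and summed to 519 TPM in replicate 1 and 743 TPM in replicate 2. The clustered genes with them summed to 145 and 189 TPM. Of all 21474 protein-coding genes 81.4% had these letters in the last 50 bases of a transcript, and 28.4% were read. The GENCODE release differs from the authors', and for 55 of the 77 members the first model has the deposited length. Hist1h4d is 393 nt in the deposited table and 1138 nt in M21, and Hist1h1e is 748 nt and 1930 nt, so for these genes the searched model is longer than the one that was quantified.

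**Figure D3:**
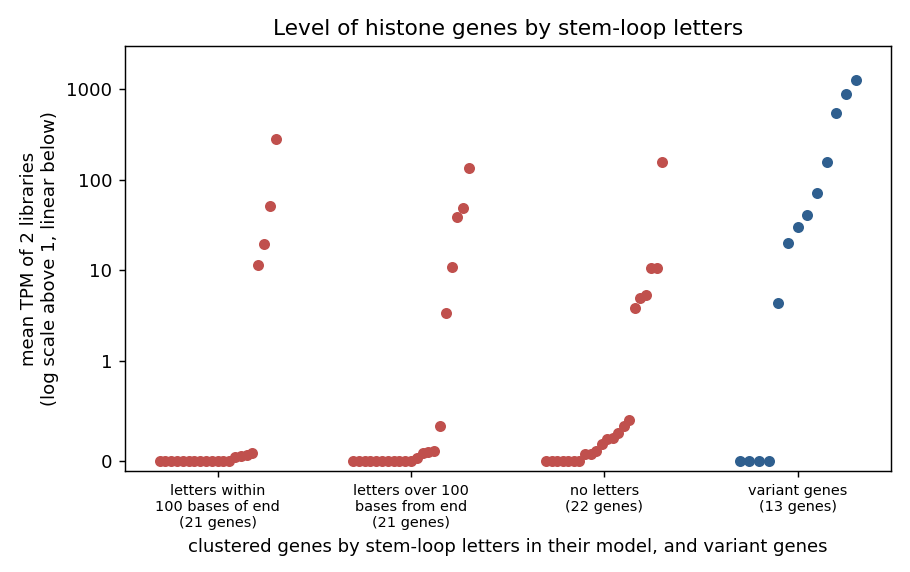
Mean TPM over the 2 libraries of each histone gene, for clustered genes (red) by where the stem-loop letters stand in their GENCODE M21 model, and for variant genes (blue). Each of the 3 clustered sets holds mostly genes at or near 0, and the highest gene of each, Hist1h2ap, Hist1h1c and Hist1h2bc, lies between 136 and 283 TPM.

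Many H2A and H2B genes stand head to head and share the DNA between their starts, and 12 such pairs of clustered genes were found, with 175 to 305 bases between the starts. In 9 pairs neither gene was read, in 3 pairs exactly 1 gene was, and in 0 pairs both were. Of the clustered genes, 5 of 18 H2A genes and 1 of 15 H2B genes were read, so at most 1 pair could have been read at both ends. Hist1h2ac had 0.18 TPM in replicate 1 and no count in replicate 2, beside 89.7 and 227 TPM of its partner Hist1h2bc. Hist1h2ap had 213 and 353 TPM beside a partner, Hist1h2br, with no count in either library. By counting error alone, with a count of 3 as the limit, Hist1h2ap was at least 3730-fold and 5254-fold higher. This limit does not cover molecules lost before sequencing or reads assigned to near-identical copies. Hist1h2ae had 3.08 and 3.59 TPM, against 0 and 0.19 TPM of Hist1h2bg. Hist1h2ap, Hist1h2br and Hist1h2ae share windows with near-identical copies, 92.2%, 86.4% and 30.7% of them.

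The 235 bases between Hist1h2ap (left, minus strand) and Hist1h2br (right, plus strand) are shown here. They were chosen because reads were assigned to the gene at 1 end alone, although 92.2% of the windows of Hist1h2ap occur elsewhere. The sequence is from RefSeq (GRCm38.p6, chr13:21833508-21833742, plus strand), with CCAAT and its reverse complement in capitals.
Hist1h2ap-Hist1h2br: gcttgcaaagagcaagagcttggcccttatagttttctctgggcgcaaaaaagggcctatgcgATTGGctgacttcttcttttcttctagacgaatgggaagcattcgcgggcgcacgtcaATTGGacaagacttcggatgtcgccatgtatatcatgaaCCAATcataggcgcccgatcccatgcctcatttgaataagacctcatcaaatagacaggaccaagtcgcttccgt
CCAAT occurs in it 1 time on the plus strand and 2 times on the minus strand, and neither TATAAA nor ATTTGCAT, the octamer known from H2B promoters, is in this stretch. In RefSeq promoter windows, from 250 bases before the start to 50 after it, with both strands searched, CCAAT was in 50 of 59 clustered and 9 of 12 variant genes, against 37.4% of all 32851 windows. TATAAA was in 35 of 59 clustered and 1 of 12 variant genes, against 13.6% of all windows. ATTTGCAT was in 12 of 59 clustered genes, 5 of them among 13 H2B genes, and in 1 of 12 variant genes, against 1.74% of all windows. A gene was counted when any of its windows held the motif, while the share over all windows counts each window singly. The 2 shares are thus of unlike units. The motifs can overlap one another at their ends, and each match was counted. Of the clustered genes, 8 of the 9 read ones and 42 of the 50 others held CCAAT, and 4 and 31 held TATAAA. Of the 77 members 71 had a window; Hist1h2bc, Hist2h2be, Hist1h3a, Hist1h3f, Hist2h4 and H2afx did not.

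Several histone genes differed between the libraries. Averaged over the libraries, 20 members reached 5 TPM, and 8 of them were over 2-fold apart on the log2(TPM + 1) scale, against 54.5% of the 7711 protein-coding genes of that level. In replicate 2 relative to replicate 1, 4 were higher, where 27.8% of protein-coding genes were, and 4 were lower, where 26.8% were. Of the 12 clustered genes 4 were higher and 3 lower, and of the 8 variant genes 0 were higher and 1, H1f0, was lower. The largest shift among genes read in both libraries was that of H1f0, at -1.80 on the log2 scale, next to -1.73 for Hist1h1e and 1.33 for Hist1h2bc. The fold changes understate those of low genes because of the added 1. The median over the 20 members was -0.24, beside 0.01 for all protein-coding genes of that level.

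Some members were present in 1 library and missed by the other. Of 20 members at 10 TPM or more in either library, 3 had under 3 counts in the other, against 20.0% of 7412 protein-coding genes. None of the 3 was a variant gene. The variant gene H2afy2 fell under the 10 TPM limit, with 8.68 TPM from 582 counts in replicate 1 and no count in replicate 2. At 30 TPM or more 0 members were missed, and the share over all protein-coding genes was not computed at that level. Hist2h3b had 21.1 TPM from 265 counts in replicate 1 and no count in replicate 2, where 12.4% of protein-coding genes at that level in replicate 1 were missed. Hist1h3i had 21.1 TPM from 181 counts and Hist2h2be had 10.6 TPM in replicate 2, both with no count in replicate 1, where 12.9% were missed. Hist2h3b shares all of its windows and Hist1h3i 68.6% of them, while Hist2h2be shares none. The clustered H3 sum of about the same size in each library thus came from a different gene each time.

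**Figure D4:**
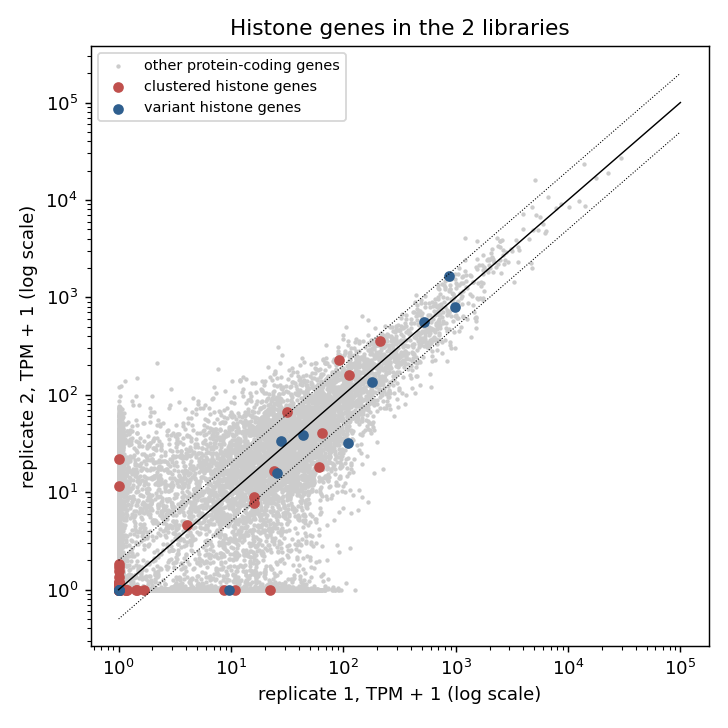
Replicate 2 against replicate 1 for every protein-coding gene (grey), clustered histone genes (red) and variant histone genes (blue), as TPM + 1 on log scales; the solid line marks equal values and the dotted lines a 2-fold difference. Of the 20 members that average at least 5 TPM, 8 lie outside the dotted lines, and the points along the axes are genes with no reads in 1 library.

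Transcript shares were stable for the genes with the highest levels. Of 10 genes looked at, 5 had more than 1 transcript in the deposited tables, and in 3 of them the same transcript led in both libraries. H2afz-201 held 99.4% and 99.9% of the TPM of H2afz (99.7% ± 0.35, SD, n = 2), H3f3b-201 held 91.0% and 89.6% of that of H3f3b (90.3% ± 1.02), and H3f3a-201 held 67.1% and 68.3% of that of H3f3a (67.7% ± 0.82). H3f3a-204, a shorter coding transcript of 481 nt, held 26.1% and 22.9%. In H2afv the lead changed: the 519-nt H2afv-201 held 70.4% and 46.9%, and the 1633-nt H2afv-202 held 29.7% and 53.1%. In H2afy the coding H2afy-202 held 79.4% and 41.8%, and H2afy-203, a 728-nt model annotated as a retained intron, had 0% in replicate 1 and 58.2% from 148 counts in replicate 2.

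**Figure D5:**
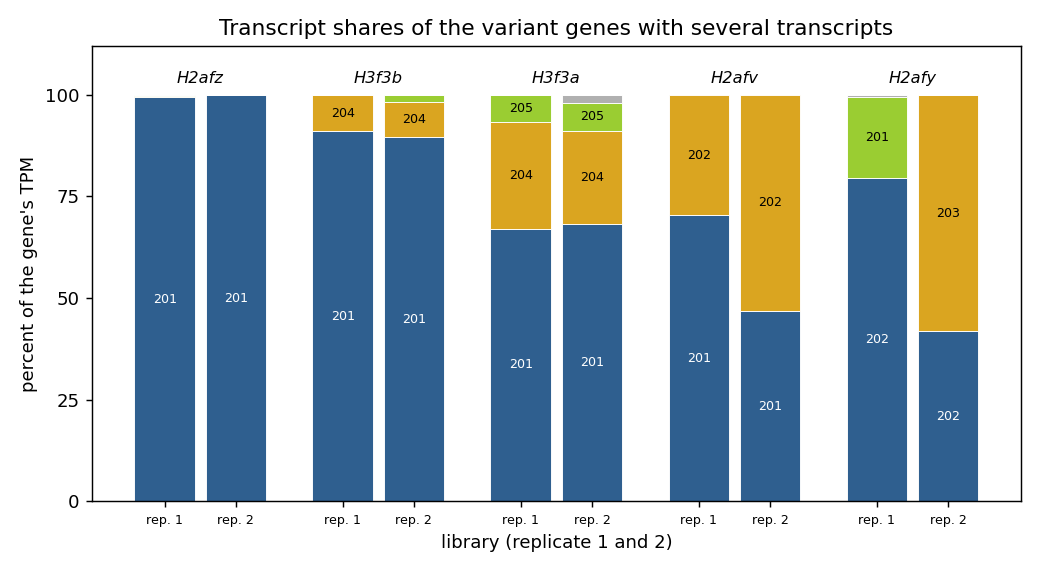
Percent of each gene's TPM on each of its transcripts in replicate 1 and replicate 2, for the 5 variant genes with several transcripts; the numbers in the bars are the transcripts' GENCODE suffixes. H2afz, H3f3b and H3f3a keep their leading transcript, at 99.7%, 90.3% and 67.7% on average, while H2afv and H2afy do not.

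The germline histone genes were at or near 0. None of Hist1h1t, Hist1h2aa, Hist1h2ba, H2afb1, H2afb2 and H2afb3, which are made in testis, was read, and 1.24 counts of Hist1h2ba in replicate 2 were all that these 6 genes had.

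Genes that act on histone mRNA or protein are set here against the 28.4% of protein-coding genes read in both libraries. Of 14 factors of stem-loop binding and histone mRNA 3′ end processing, 7 were read. The cap-binding gene Ncbp2 had 42.6 and 77.7 TPM, the cleavage nuclease gene Cpsf3 47.2 and 59.3 TPM, Lsm10, of the U7 particle, 21.1 and 36.1 TPM, and Ncbp1 32.4 and 14.8 TPM. Slbp had no count in replicate 1 and 27.8 TPM from 1256 counts in replicate 2. Lsm11, Casp8ap2 and Zfp473, named after their values were seen, were listed at 0 TPM in both libraries. Among the 7 of these factors that averaged at least 5 TPM, 2 were over 2-fold higher and 1 lower in replicate 2, against 27.8% and 26.8% of protein-coding genes.

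Of 20 histone chaperones and depositors, 16 were read. Rbbp4, a histone-binding subunit of several chromatin complexes, had 126 and 158 TPM, the nucleosome assembly gene Nap1l4 142 and 106 TPM, Atrx, which helps to deposit H3.3, 54.5 and 93.4 TPM, and Ssrp1, of the FACT complex, 88.4 and 36.8 TPM. Hat1, which acetylates new H4, had 3.54 and 65.0 TPM, the largest shift of the list. Of 20 DNA replication genes, 10 were read, and all 20 summed to 458 TPM in replicate 1 and 460 TPM in replicate 2. Single genes moved under that sum: of the 16 that averaged at least 5 TPM, 6 were over 2-fold higher and 4 lower in replicate 2, and of 16 such chaperones 2 were higher and 2 lower. Rrm2 had 128 and 52.4 TPM, Pcna 50.8 and 86.9 TPM, Mcm3 69.0 and 40.1 TPM, and Lig1 33.5 and 50.01 TPM, while Prim1 had no count in replicate 1 and 42.1 TPM in replicate 2. Over the same pair of libraries the clustered histone sum was 664 and 932 TPM.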

How the data were processed

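RNA sequencing libraries were made from 13 pg of newborn mouse heart RNA, with a mirVana extraction and a Smart-seq protocol, per the labels. The authors deposited expected counts (estimated reads, not whole), TPM scaled by effective length, and the posterior SD of each count, per the file headers. The authors' deposited transcript tables give each transcript's percent of its gene. Text notes deposited with them name mm10 and GENCODE M4, and neither the aligner nor the quantifier is given in the sources used here.

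TPM was rescaled over mouse genes. Symbols, gene types and coordinates were those of GENCODE M21 (mm10), matched by identifier (42462 of 43346 genes). A pair was described as different where both libraries had 1 sign and the mean of log2(TPM + 1) exceeded 2 SD; with 2 libraries a two-sided sign-flip test cannot go below 0.5. Shared windows are 100-base stretches present on either strand of another gene's transcripts. No strand rule of counting is given, so antisense partners are not separated. The SD covers these 2 libraries, and counting by molecule was not possible. The genes named are every variant gene, the 2 marker genes, clustered genes averaging 10 TPM or more, germline genes, and in the other lists up to 4 genes with the highest mean and the one with the largest difference; other genes were named after their values were seen. Members and lists were chosen with earlier results of these data known. Alternatives were posterior mean TPM, CPM (expected counts scaled to a common total), other thresholds, a pseudocount of 0.1, single libraries, and TMM (edgeR 4.0.16) or DESeq2 1.42.0 scaling of rounded expected counts. Scripts ran in Python 3.11.15 with pandas 2.3.3 and were tested on simulated data.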

Additional observations from a re-analysis of the deposited data

How the results depend on the processing

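The clustered-to-variant log2 ratio kept its sign under every alternative run. No alternative left out H3f3a and H3f3b, which held 54.0% of histone TPM in replicate 1 and 58.7% in replicate 2. Without these genes the variant sum falls below the clustered sum in replicate 2, though not in replicate 1. The ratio was -2.77 in CPM, which is not per length, with 87.1% on variant genes and 55.2% of the clustered sum on Hist1h2bc and Hist1h1c. Without Hist1h2ap, an alternative chosen after seeing the data, the ratio was -2.56 and the variant share 85.5%. The log2 ratio of H3f3b to H3f3a reversed to 0.67 in CPM and ranged from -1.06 to 0.17 over single libraries. At 30 TPM or more, 0 members were missed by 1 library, against 3 at 10 TPM, with no share over all protein-coding genes computed at 30 TPM. Clustered genes without the stem-loop letters that were read numbered 3 to 4 in single libraries, against 1 in both; a single library needs only its own reading, by construction. The share of H2afz-201 moved to 98.6% by posterior means, and the other 97 values recomputed under alternatives kept their direction and, where counts, stayed within 1.5 times. TMM moved the median log2 difference between libraries by -0.07 and DESeq2 size factors by -0.11. No paired analysis was possible because the libraries form 1 group. Depth limits low genes: 0 counts allow up to 3, and the part of the 13 pg of input in the genes missed by 1 library was not tested.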
